A study of Mus musculus with 24 samples.

Results

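The CC chemokines examined here were 10 genes: Ccl2, Ccl3, Ccl4, Ccl5, Ccl6, Ccl7, Ccl9, Ccl12, Ccl17 and Ccl22. They were chosen by name, as the probes of the array whose gene name equals 1 of these symbols, and they make up 10 of the 21597 genes with a symbol on the array, with 12 probes. All 10 were among the 17347 genes that were tested, that is, genes whose probe exceeded background clearly, by the scanner's own flag, in both replicates of 1 condition or more.

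Levels were measured in resting splenic B cells, in peritoneal macrophages elicited with thioglycollate (EPM) and in macrophages grown from bone marrow (BMDM), all of C57BL/6 mice, exposed to Kdo2 lipid A (called Kdo2 in the labels), the lipid A part of lipopolysaccharide and an agonist of TLR4. EPM were the adherent cells of a peritoneal lavage, BMDM were grown from marrow with L-cell conditioned medium as a source of M-CSF, and B cells were the spleen cells left after magnetic removal of CD43+ and CD11b+ cells. Each cell type had 4 conditions: an early control, Kdo2 for 1 h, DMSO for 12 h and Kdo2 for 12 h. The early control was untreated cells for EPM and B cells and DMSO for 1 h for BMDM, so that the vehicle differs between the 1 h comparisons.

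Chemokines are small secreted proteins that bind G protein-coupled receptors and direct the movement of leukocytes. The CC family, in which the first conserved cysteines are adjacent, mainly attracts monocytes, macrophages, T cells, dendritic cells and eosinophils. Macrophages that sense lipopolysaccharide through TLR4 are a well known source of several of them, and the genes in mice lie largely in clusters. Here they are ordered by their kind: the macrophage inflammatory proteins and RANTES (Ccl3, Ccl4, Ccl5), the ligands of CCR2 (Ccl2, Ccl7, Ccl12), a pair of CCR1 ligands made without stimulation (Ccl6, Ccl9) and the ligands of CCR4 (Ccl17, Ccl22).

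Each condition was measured on 1 array of 2 colours, with 1 biological replicate in the Cy5 channel and the other in the Cy3 channel, so that n = 2 throughout and 12 arrays gave 24 channels. Whether the replicates came from separate mice or pools is not given in the sources used here, and p-values measure the spread between these channels. Because a condition and its array are the same thing, a difference between arrays cannot be told apart from the condition, and because each cell type had a slide of its own, a slide's effect cannot be told apart from that of the cell type either. Levels are normalised intensities on a log2 scale, which ran up to 18.31 in the genes tested. A probe not well above background lay at about 6, and the lowest signal well above background was 5.44 to 6.16 per channel. Levels are compared only within a gene, since probes differ in brightness, and whether a probe also binds the transcripts of related family members was not tested. Changes are differences of log2 levels with the standard error (SE) of a limma fit over all genes, and a gene is said to have risen or fallen where the Benjamini-Hochberg adjusted p over all genes was under 0.05. A stricter fit took the mean of each array as 1 sample and the 2 control arrays of a cell type as replicates. It is given beside the results as the fit on array means. In bulk RNA, fewer cells of a type and less RNA per cell cannot be told apart.

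The labels of the macrophages fitted their markers: all 10 macrophage markers, among them Emr1, Csf1r and Cd68, were well above background in both channels of every EPM and BMDM condition, and all 10 B cell markers in every B cell condition. The summed level of the 8 neutrophil markers was higher in BMDM (13.41 to 14.49) than in EPM (10.20 to 11.02), that of the 5 dendritic cell markers was higher in EPM (12.15 to 13.69) than in BMDM (9.44 to 9.82), and their part in the differences between EPM and BMDM was not tested. Of the dendritic cell markers, Itgax read 13.14 in untreated EPM and 8.41 in BMDM with DMSO for 1 h, Flt3 read 6.68 and 6.54, Xcr1 read 7.44 and 7.53, and Cd209a and Siglech were not well above background. In B cells, 4 to 5 of the macrophage markers were well above background, with a summed level of 10.34 to 11.60 against 18.06 to 18.99 in macrophages. In macrophages, 5 to 7 of the B cell markers were well above background in both channels, with a summed level of 14.39 to 16.02 against 18.12 to 18.38 in B cells. In untreated EPM Blnk read 15.97 and Cd22 10.80, and no other B cell marker read above 7.42. Of the B cell arrays, those labelled Kdo2 1 h and DMSO 12 h go against the authors' table of normalised values: the 4 columns of that table for these 2 conditions were closest to each other's channels (r across genes of 0.907 to 0.925, against -0.819 to -0.771 with their own), while the other 20 columns were closest to their own condition. Results on the response of B cells to Kdo2 are therefore given with the labels as deposited and with these 2 labels exchanged.

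The probes of 8 members lay in 2 groups on chromosome 11 of mm8, Ccl2, Ccl7 and Ccl12 in one and Ccl5, Ccl9, Ccl6, Ccl3 and Ccl4 in the other, and the probes of Ccl17 and Ccl22 lay on chromosome 8. Of the 10 members, 6 had a promoter in the RefSeq table (GRCm38.p6): Ccl3, Ccl6, Ccl9, Ccl12, Ccl17 and Ccl22. The 250 bases before the transcription start are shown for 4 of them, because their genes moved in different ways with Kdo2. In both macrophages Ccl3 rose more at 1 h than at 12 h, and Ccl12 and Ccl9 rose more at 12 h. Ccl6, the neighbour of Ccl9 on the chromosome, fell. The sequences of Ccl3, Ccl12, Ccl9 and Ccl6 lie, in this order, at chr11:83649379-83649628 (minus strand), chr11:82101595-82101844 (plus strand), chr11:83578637-83578886 (minus strand) and chr11:83593088-83593337 (minus strand). Capitals mark matches on either strand to an NF-kB-like motif (GGG and CC with any 5 bases between), an ISRE-like motif (GAAA and GAAA with any 2 bases between), a TATA box-like motif (TATAAA), an AP-1-like motif (TGA and TCA with any 1 base between) and a PU.1-like motif (GAGGAA).
Ccl3: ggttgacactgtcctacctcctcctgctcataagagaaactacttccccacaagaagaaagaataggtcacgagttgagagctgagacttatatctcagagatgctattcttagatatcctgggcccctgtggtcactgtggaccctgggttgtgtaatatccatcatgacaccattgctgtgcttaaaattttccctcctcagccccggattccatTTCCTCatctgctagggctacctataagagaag
Ccl12: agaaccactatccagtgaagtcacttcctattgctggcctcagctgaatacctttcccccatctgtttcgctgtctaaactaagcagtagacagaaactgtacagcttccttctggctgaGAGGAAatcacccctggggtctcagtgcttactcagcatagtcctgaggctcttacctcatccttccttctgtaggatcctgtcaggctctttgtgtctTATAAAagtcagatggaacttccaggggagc
Ccl9: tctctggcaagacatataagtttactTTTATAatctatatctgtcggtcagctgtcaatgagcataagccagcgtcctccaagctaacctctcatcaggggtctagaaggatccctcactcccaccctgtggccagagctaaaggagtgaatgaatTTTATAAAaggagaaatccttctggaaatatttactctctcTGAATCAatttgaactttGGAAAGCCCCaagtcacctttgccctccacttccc
Ccl6: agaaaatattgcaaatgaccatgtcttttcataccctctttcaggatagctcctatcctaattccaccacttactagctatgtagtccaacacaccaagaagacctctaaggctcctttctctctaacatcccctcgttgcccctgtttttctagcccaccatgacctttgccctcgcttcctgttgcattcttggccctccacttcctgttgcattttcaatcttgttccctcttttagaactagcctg

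The upstream sequence of Ccl9 held an NF-kB-like match (bases 35 to 26 before the start), an AP-1-like match and TATAAA matches that partly overlap each other, the nearest of them ending 87 bases before the start. That of Ccl12 held a TATAAA match 31 to 26 bases before the start and a PU.1-like match, that of Ccl3 held a PU.1-like match alone, and that of Ccl6 held none of the 5 motifs. Of the other 2 members, Ccl22 had 2 NF-kB-like matches and Ccl17 a PU.1-like match. Among all 32851 promoters of the table, 45.8% held the NF-kB-like motif, 23.3% the PU.1-like motif, 12.4% TATAAA, 6.75% the AP-1-like motif and 2.98% the ISRE-like motif in the same window. The matches are a description of these letters only.

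In EPM, 8 of the 10 chemokines rose and 1 fell after 1 h of Kdo2, and 9 rose and 1 fell after 12 h. The members' median log2 change was 2.20 at 1 h and 3.60 at 12 h, against medians of -0.05 and -0.06 over all genes tested, of which 9.39% rose and 19.7% fell at 1 h, and 19.6% rose and 34.3% fell at 12 h. In BMDM, 7 rose and 1 fell at each time, with members' medians of 2.39 and 2.36. Over all genes in BMDM, 11% rose and 17.6% fell at 1 h, and 28.6% rose and 36.3% fell at 12 h. Beside these changes in BMDM, 5 of the 8 neutrophil markers rose at 1 h (summed level 13.85 in DMSO and 14.49 in Kdo2), and 4 rose and 1 fell at 12 h (13.41 and 14.38). In EPM 2 of them rose and 1 fell at each time (10.27 and 11.02 at 1 h, 10.20 and 10.54 at 12 h). The summed level in BMDM was mostly S100a9, at 13.50 in DMSO and 14.17 in Kdo2 at 1 h, where limma did not call it (adjusted p = 0.0945). In EPM at 1 h S100a9 read 7.79 in untreated cells and 9.73 with Kdo2, and S100a8 8.89 and 9.46. The part of these markers in the members' changes was not tested. On array means, with 3 residual degrees of freedom, the members that passed were 3 in EPM at 1 h (Ccl2, Ccl3, Ccl4), 7 in EPM at 12 h (Ccl2, Ccl3, Ccl4, Ccl5, Ccl7, Ccl9, Ccl12), 1 in BMDM at 1 h (Ccl5) and 6 in BMDM at 12 h (Ccl2, Ccl3, Ccl4, Ccl5, Ccl7, Ccl12), all of them higher with Kdo2. Of all genes, 0.842% and 5.62% were higher in EPM at 1 h and 12 h in that fit, and 0.548% and 9.28% in BMDM.

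**Figure D1:**
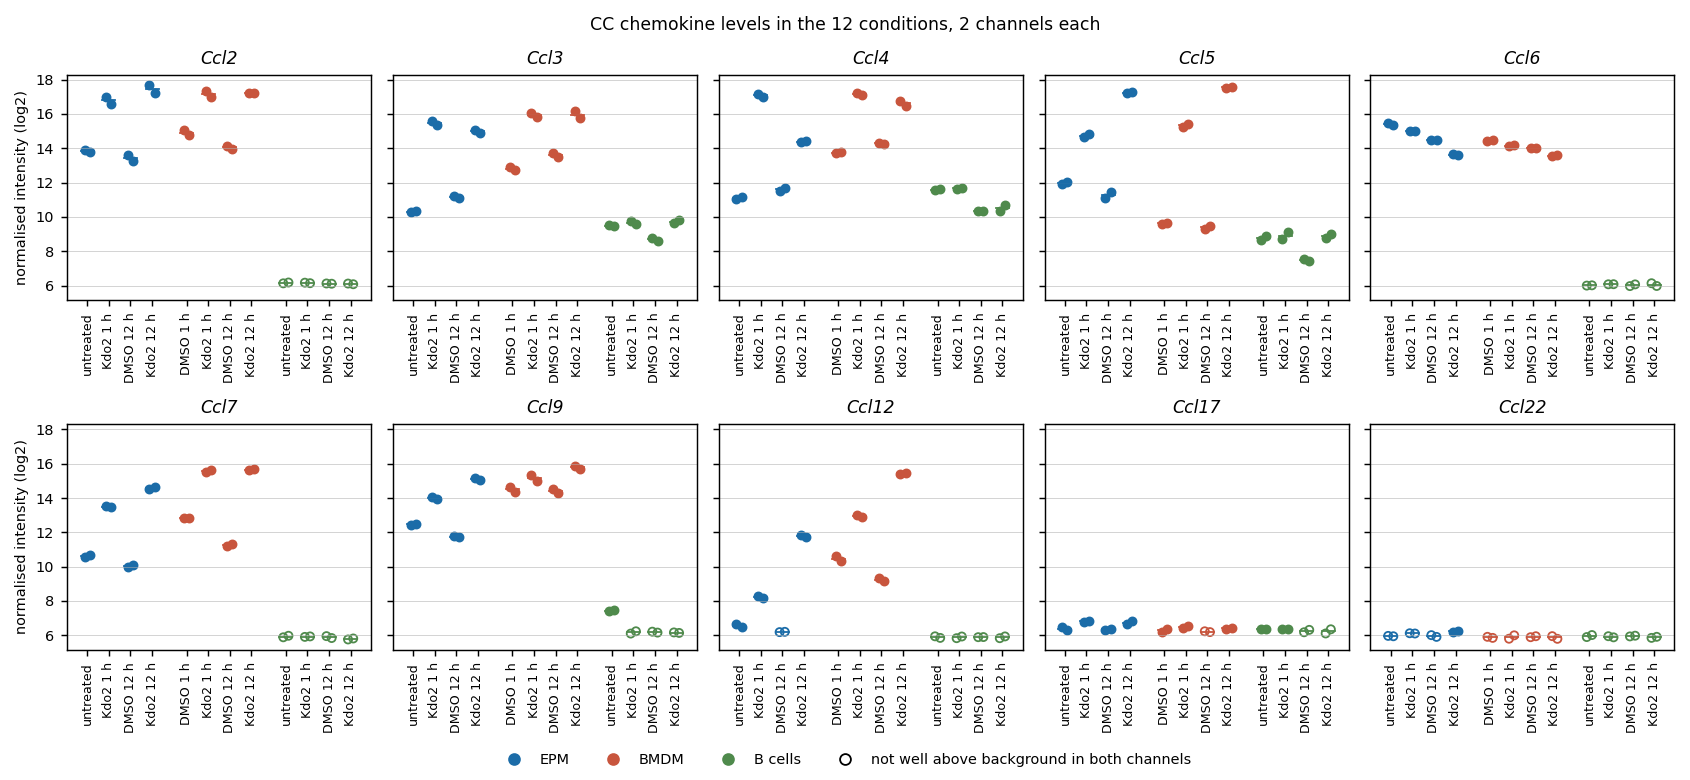
Normalised intensity (log2, vertical axis) of each CC chemokine in the 12 conditions (horizontal axis), with 1 point per channel, a bar at the mean of the 2 channels, and open points where the probe was not well above background in both. Ccl2 in EPM goes from 13.91 and 13.76 in untreated cells to 17.70 and 17.21 after 12 h of Kdo2 and stays near 6 in B cells, while Ccl6 stays between 13.57 and 15.48 in all macrophage channels.

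Ccl3 and Ccl4 encode MIP-1 alpha and MIP-1 beta, which attract monocytes, macrophages and T cells. Ccl3 (probe at chr11:83464051-83464110, mm8) read 10.26 and 10.34 in untreated EPM, 15.61 and 15.38 after 1 h of Kdo2, 11.20 and 11.08 after 12 h of DMSO, and 15.07 and 14.89 after 12 h of Kdo2. In BMDM it read 12.91 and 12.71 after 1 h of DMSO, 16.08 and 15.85 after 1 h of Kdo2, 13.72 and 13.49 after 12 h of DMSO, and 16.16 and 15.77 after 12 h of Kdo2. The Kdo2 channels lay above all control channels of their cell type and did not overlap them. The rise at 1 h was 36.6-fold in EPM (log2 change 5.20 ± 0.13 SE, adjusted p = 3.96e-16) and 8.90-fold in BMDM (3.15 ± 0.13, adjusted p = 7.65e-13). At 12 h it was 14.3-fold in EPM (3.84 ± 0.13) and 5.14-fold in BMDM (2.36 ± 0.13).

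Ccl4 (probe at chr11:83480745-83480804, mm8) read 11.07 and 11.19 in untreated EPM and 17.18 and 17.00 after 1 h of Kdo2, then 11.50 and 11.70 in DMSO and 14.39 and 14.41 in Kdo2 at 12 h. BMDM had 13.70 and 13.79 in DMSO and 17.21 and 17.11 in Kdo2 at 1 h, and 14.29 and 14.27 in DMSO and 16.79 and 16.49 in Kdo2 at 12 h. Ccl4 had the largest change of the 10 in EPM at 1 h, 62.3-fold (5.96 ± 0.11, adjusted p = 5.26e-18), and its change at 12 h was 6.93-fold (2.79 ± 0.11). In BMDM the rise was 10.7-fold at 1 h (3.42 ± 0.11) and 5.13-fold at 12 h (2.36 ± 0.11). After 1 h of Kdo2 the Ccl4 levels of EPM and BMDM lay close together, although their early controls differed by 6.12-fold. These Kdo2 levels, 17.00 to 17.21, were near the top of the scale, which ran up to 18.31. What this did to the size of the changes was not tested.

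Ccl5 encodes RANTES, which attracts T cells and monocytes. Its brighter probe (chr11:83341989-83342048, mm8) read 11.94 and 12.02 in untreated EPM, 14.65 and 14.81 after 1 h of Kdo2, 11.08 and 11.47 after 12 h of DMSO, and 17.20 and 17.30 after 12 h of Kdo2. In BMDM it read 9.61 and 9.67 in DMSO and 15.26 and 15.40 in Kdo2 at 1 h, and 9.31 and 9.48 in DMSO and 17.54 and 17.58 in Kdo2 at 12 h. With this probe the lowest controls of any macrophage condition were thus in BMDM, and the highest level was also in BMDM. The rise in BMDM at 12 h was 286.4-fold (8.16 ± 0.14, adjusted p = 5.9e-19). The other rises of Ccl5 were 51.8-fold in BMDM at 1 h (5.69 ± 0.14), 6.73-fold in EPM at 1 h (2.75 ± 0.14) and 63.0-fold in EPM at 12 h (5.98 ± 0.14). A second Ccl5 probe (chr11:83342140-83342195) gave larger changes at 12 h, 7.96 in EPM and 9.38 in BMDM, and similar ones at 1 h (3.01 and 5.50). After 12 h of Kdo2 both probes were above 17, near the top of the scale. There the mean of the second probe was 17.15 in EPM and 17.06 in BMDM, so that which macrophage read higher depended on the probe. Beside these rises, the summed level of the 7 NK cell markers was 10.10 in EPM and 10.13 in BMDM after 12 h of Kdo2, against 8.81 and 8.83 in DMSO. Of that list, Klrk1 rose by 3.31 on the log2 scale in both EPM and BMDM at 12 h, and Gzmb by 0.71 in EPM and 0.19 in BMDM, while Ncr1, Gzma and Eomes were not well above background in any macrophage channel. Their part in the Ccl5 level was not tested.

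Ccl2, Ccl7 and Ccl12 encode the monocyte chemoattractant proteins MCP-1, MCP-3 and MCP-5, which recruit monocytes through CCR2. Ccl2 (chr11:81853343-81853402, mm8), measured by 10 spots per array whose standard deviation was 0.04 to 0.25, read 13.91 and 13.76 in untreated EPM, 17.00 and 16.59 after 1 h of Kdo2, 13.64 and 13.25 after 12 h of DMSO, and 17.70 and 17.21 after 12 h of Kdo2. In BMDM it read 15.05 and 14.77 in DMSO and 17.36 and 16.98 in Kdo2 at 1 h, and 14.15 and 13.96 in DMSO and 17.20 and 17.22 in Kdo2 at 12 h. All Kdo2 channels of both macrophages were within a narrow band above the controls, at 16.59 to 17.70, near the top of the scale. The rises were 7.79-fold in EPM at 1 h (2.96 ± 0.16, adjusted p = 8.95e-11), 16.1-fold in EPM at 12 h (4.01 ± 0.16), 4.80-fold in BMDM at 1 h (2.26 ± 0.16) and 8.94-fold in BMDM at 12 h (3.16 ± 0.16).

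Ccl7 (brighter probe at chr11:81863349-81863408, mm8) read 10.57 and 10.70 in untreated EPM, 13.52 and 13.46 after 1 h of Kdo2, 9.95 and 10.07 after 12 h of DMSO, and 14.51 and 14.63 after 12 h of Kdo2. The BMDM channels held 12.85 and 12.84 in DMSO and 15.54 and 15.60 in Kdo2 at 1 h, and 11.20 and 11.29 in DMSO and 15.63 and 15.69 in Kdo2 at 12 h. Ccl7 changed by nearly the same amount in both macrophages: 7.25-fold in EPM and 6.62-fold in BMDM at 1 h, and 23.5-fold in EPM and 21.3-fold in BMDM at 12 h (log2 4.56 ± 0.07 and 4.41 ± 0.07). The second probe of Ccl7 gave changes of 2.88 and 4.48 in EPM and 2.90 and 4.33 in BMDM.

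Ccl12 (chr11:81919403-81919462, mm8) was near background in EPM controls, at 6.65 and 6.47 in untreated cells and 6.18 and 6.20 after 12 h of DMSO, the latter not well above background in either channel. With Kdo2 it read 8.26 and 8.16 at 1 h and 11.84 and 11.72 at 12 h. In BMDM it was measured in all channels, at 10.61 and 10.30 in DMSO and 13.01 and 12.91 in Kdo2 at 1 h, and at 9.35 and 9.13 in DMSO and 15.40 and 15.47 in Kdo2 at 12 h. The rises in EPM were 3.13-fold at 1 h (1.64 ± 0.09, adjusted p = 1.3e-10) and at least 48.2-fold at 12 h (adjusted p = 3.72e-19), the bound being set, per channel, against the control's measured value or the dimmest probe still flagged above background, whichever was higher. Those in BMDM were 5.69-fold at 1 h (2.51 ± 0.09) and 73.3-fold at 12 h (6.20 ± 0.09). The size in EPM depended on how background was corrected: with the scanner's processed signal the log2 change of Ccl12 was 2.77 at 1 h and 8.64 at 12 h.

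**Figure D2:**
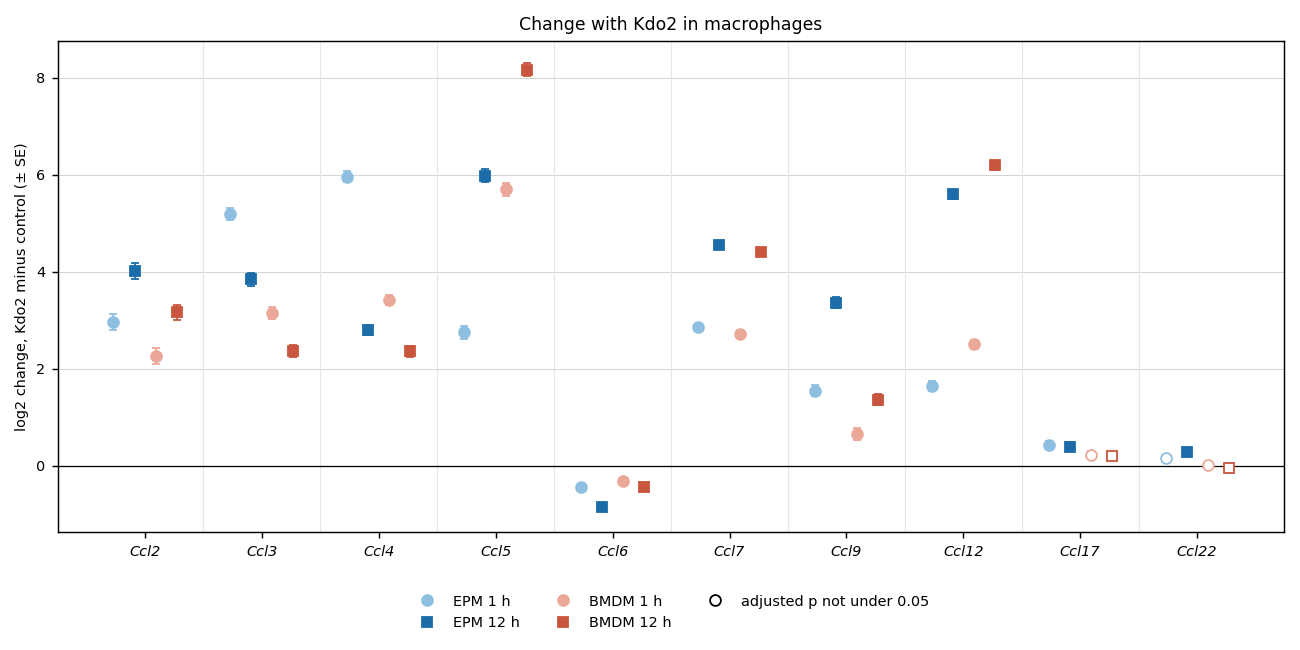
Log2 change with Kdo2 against control (vertical axis, ± SE of the limma fit) for each CC chemokine (horizontal axis) in EPM and BMDM at 1 h (circles) and 12 h (squares), open where the adjusted p was not under 0.05. The control was the early control for 1 h and DMSO for 12 h. Ccl4 in EPM drops from 5.96 at 1 h to 2.79 at 12 h, Ccl12 climbs from 1.64 to 5.59 (a lower bound), and the points of Ccl6 are the only filled ones below 0.

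Ccl6 and Ccl9 encode C10 and MIP-1 gamma, ligands of CCR1 that rodent macrophages and other myeloid cells make without stimulation. Ccl9 (chr11:83390916-83390975, mm8) read 12.45 and 12.48 in untreated EPM, 14.08 and 13.95 after 1 h of Kdo2, 11.76 and 11.73 after 12 h of DMSO, and 15.17 and 15.04 after 12 h of Kdo2. In BMDM it was high already in DMSO, at 14.65 and 14.38 at 1 h and 14.54 and 14.31 at 12 h, and read 15.37 and 14.97 after 1 h and 15.89 and 15.68 after 12 h of Kdo2. Its rises were 2.93-fold in EPM at 1 h (1.55 ± 0.11, adjusted p = 5.84e-09), 10.3-fold in EPM at 12 h (3.36 ± 0.11), 1.58-fold in BMDM at 1 h (0.66 ± 0.11) and 2.57-fold in BMDM at 12 h (1.36 ± 0.11). The rise in BMDM at 1 h was lost with the processed signal (log2 change 0.60, adjusted p = 0.0914).

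Ccl6 (chr11:83404690-83404749, mm8) was the member that fell in both macrophages. It read 15.48 and 15.38 in untreated EPM, 15.01 and 14.98 after 1 h of Kdo2, 14.46 and 14.47 after 12 h of DMSO, and 13.65 and 13.58 after 12 h of Kdo2. Its BMDM values were 14.43 and 14.51 in DMSO and 14.13 and 14.17 in Kdo2 at 1 h, and 14.00 and 14.03 in DMSO and 13.57 and 13.59 in Kdo2 at 12 h. In each case the Kdo2 channels lay below those of the control they were compared with, the early control at 1 h and DMSO at 12 h. The fall was 1.80-fold in EPM at 12 h (log2 change -0.85 ± 0.06, adjusted p = 5.32e-10) and 1.35-fold at 1 h (-0.43 ± 0.06). In BMDM it was 1.36-fold at 12 h (-0.44 ± 0.06) and 1.25-fold at 1 h (-0.32 ± 0.06). The 12 h controls themselves lay below the early controls, and on array means no fall of Ccl6 passed, the value in EPM at 1 h being 0.052. With the processed signal and with the authors' values, only the fall in EPM at 12 h passed.

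Ccl17 and Ccl22 encode TARC and MDC, ligands of CCR4 that attract T cells and are best known from dendritic cells and from macrophages exposed to interleukin 4. Both were at or near background in every condition. Ccl17 (chr8:97700999-97701058, mm8) read 6.46 and 6.31 in untreated EPM, 6.80 and 6.83 after 1 h of Kdo2, 6.31 and 6.36 after 12 h of DMSO, and 6.63 and 6.84 after 12 h of Kdo2. It rose in EPM by 1.35-fold at 1 h (0.43 ± 0.08, adjusted p = 0.000757) and 1.32-fold at 12 h (0.40 ± 0.08, adjusted p = 0.000595). BMDM read 6.22 to 6.56 at 1 h and 6.18 to 6.44 at 12 h and did not pass, with changes of 0.22 (adjusted p = 0.0614) and 0.20 (adjusted p = 0.0508). The BMDM control of 12 h was not well above background, so that 0.20 is a lower bound. With the replicate block, that is, with the dye as a term, both passed (adjusted p = 0.015 and 0.0157), and both also passed with the smaller offset of 16 (0.37 and 0.35) and relative to the median gene (0.25 and 0.22). At 12 h alone Ccl17 in BMDM passed with the processed signal (0.91, adjusted p = 0.00654), with the mean of probes (adjusted p = 0.046) and in a fit of BMDM alone (adjusted p = 0.04). On this offset scale changes of such dim probes are understated: with the processed signal the change of Ccl17 in EPM was 1.42 at 1 h and 1.18 at 12 h.

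Ccl22 (chr8:97639938-97639997, mm8) was well above background in 1 condition, EPM after 12 h of Kdo2, at 6.21 and 6.27 against 6.01 and 5.90 in DMSO. That was at least 1.14-fold higher (fitted log2 change 0.29, adjusted p = 0.00186). Ccl22 entered the test through this condition alone, so that its place among the 9 that rose in EPM is no support for them, and it also passed where no filter was applied. At 1 h in EPM it read 5.96 and 5.94 in untreated cells and 6.12 and 6.10 with Kdo2 (0.16 ± 0.07, adjusted p = 0.106), all not well above background. With the processed signal the change of Ccl22 in EPM was 1.58 at 1 h (adjusted p = 2.37e-05) and 2.47 at 12 h. In BMDM its 8 values lay between 5.79 and 5.99.

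The time course separated the members. In EPM the response at 12 h exceeded that at 1 h for 5 of 10 (Ccl2, Ccl5, Ccl7, Ccl9, Ccl12) and was below it for 3 (Ccl3, Ccl4, Ccl6), while 19.4% of all genes were higher and 24.3% lower in the same test. In BMDM the same 5 were higher and Ccl3 and Ccl4 were lower, while 24.5% of all genes were higher and 29.9% lower. The response of Ccl12 was higher at 12 h by 3.69 ± 0.13 in BMDM on the log2 scale, and by a fitted 3.95 in EPM, a lower bound because its 12 h control was not well above background (5.87 with the processed signal). The response of Ccl5 was higher by 3.23 ± 0.19 in EPM and 2.47 ± 0.19 in BMDM. For Ccl4 the response at 12 h minus that at 1 h was -3.17 ± 0.15 in EPM and -1.06 ± 0.15 in BMDM, and for Ccl3 it was -1.35 ± 0.18 and -0.79 ± 0.18. Ccl17 and Ccl22 did not pass in either cell type. With the processed signal the differences of Ccl6 in EPM (adjusted p = 0.307) and Ccl9 in BMDM (adjusted p = 0.0705) were lost, and Ccl22 in EPM passed (0.89, adjusted p = 0.0175).

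Part of this came from the controls, since the response at 1 h was taken against the early control and that at 12 h against DMSO for 12 h. In EPM the early control was untreated cells, so that there the 2 controls also differ in the vehicle. In BMDM the Kdo2 level of Ccl7 at 12 h minus that at 1 h was 0.08 and that of Ccl2 was 0.04, while their DMSO levels were lower at 12 h (-1.60 for Ccl7 and -0.85 for Ccl2). The mean level of Ccl3 in BMDM with Kdo2 was 15.97 at both times, while its DMSO level was higher at 12 h by 0.79. For Ccl12 and Ccl5 the Kdo2 levels themselves were higher at 12 h, by 3.57 and 2.52 in EPM and by 2.47 and 2.23 in BMDM, and for Ccl4 in EPM the Kdo2 level itself was lower (-2.69). On array means, in which the controls cancel, limma called Ccl12 in EPM (3.57, adjusted p = 0.0293) and no other member in either cell type, against 4 members in EPM and 2 in BMDM at an unadjusted p under 0.05. Of all genes, 7.44% were called in EPM and 11.5% in BMDM in that test.

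The controls of EPM and BMDM differed for 8 of 10 members. In the early controls 6 were lower in EPM than in BMDM: Ccl12 by 14.8-fold, Ccl4 by 6.12-fold, Ccl3 by 5.70-fold, Ccl7 by 4.64-fold, Ccl9 by 4.13-fold and Ccl2 by 2.10-fold. Higher in EPM were Ccl5 by 5.07-fold (log2 difference 2.34 ± 0.14, adjusted p = 3.9e-11) and Ccl6 by 1.94-fold. The members' median difference was -1.56, and over all genes tested 28.5% were higher and 29.3% lower in EPM. The 12 h controls, both in DMSO, gave the same 8 with the same directions and a median of -0.92, while 27.2% of all genes were higher and 29.8% lower. At 12 h Ccl12 was at least 8.28-fold lower in EPM, where it was not well above background, and the difference of Ccl2, 1.53-fold, was lost without replicate 2 of EPM DMSO 12 h (log2 difference -0.42, adjusted p = 0.0757). With the processed signal the 12 h difference of Ccl6 was lost (0.45, adjusted p = 0.149) and Ccl17 passed (0.79, adjusted p = 0.0172). On array means, where the early and 12 h controls of a cell type are pooled, 5 of the 8 passed (Ccl3, Ccl4, Ccl5, Ccl9 and Ccl12), with 19.6% of all genes called. With respect to other cells, the summed T cell markers were lower in EPM (10.18 to 10.26) than in BMDM (10.39 to 10.56). The summed NK cell markers were 8.90 in the early and 8.81 in the 12 h control of EPM, against 8.82 and 8.83 in those of BMDM, and their part in the higher Ccl5 level of the EPM controls was not tested.

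The responses to Kdo2 of EPM and BMDM differed at 1 h for 5 of 10 members. Given as EPM minus BMDM on the log2 scale, the difference was 2.54 ± 0.15 for Ccl4 (adjusted p = 1.83e-09), 2.04 ± 0.18 for Ccl3 and 0.90 ± 0.16 for Ccl9. It was -2.94 ± 0.19 for Ccl5 (adjusted p = 6.75e-09) and -0.86 ± 0.13 for Ccl12. The early control was lower in EPM for Ccl3, Ccl4, Ccl9 and Ccl12 and higher for Ccl5, and it was also lower for Ccl2 and Ccl7, whose responses were not called different. The control level enters the response difference with its sign turned, so that the 2 are not independent. With Kdo2, Ccl2, Ccl4 at 1 h and Ccl5 at 12 h were near the top of the scale in both macrophages. What this did to the differences was not tested. With the second probe of Ccl5 the difference was -2.49 at 1 h and -1.42 at 12 h. Over all genes tested, 4.07% had a higher and 5.5% a lower response in EPM at 1 h. At 12 h, 5 members responded more in EPM (Ccl9 at 1.998 ± 0.16, Ccl3 at 1.48 ± 0.18, Ccl2 at 0.85 ± 0.23, Ccl4 at 0.43 ± 0.15 and Ccl22 at a fitted 0.33) and 3 had a lower response (Ccl5 at -2.18 ± 0.19, Ccl12 at -0.61 ± 0.13 and Ccl6 at -0.41 ± 0.08), while 23.2% of all genes were higher and 24.6% lower. For Ccl22, 3 of the 4 groups were not well above background, so that its size was not measured (2.49 with the processed signal). It entered the test through EPM after 12 h of Kdo2 alone, so that its place among the 5 is no support for them. For Ccl7 the difference was 0.13 ± 0.09 at 1 h and 0.14 ± 0.09 at 12 h and did not pass, save at 12 h without quantile normalization between arrays (0.46, adjusted p = 0.000456). On array means limma called no member at either time, against 3 members at 1 h and 1 at 12 h at an unadjusted p under 0.05. Of all genes, 0% were called at 1 h (424 genes at an unadjusted p under 0.05) and 0.617% at 12 h.

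The direction for Ccl12 depended on the background correction, since its EPM controls were dim. The response difference of Ccl12 was 0.15 at 1 h and 2.24 at 12 h (adjusted p = 1.26e-05) with the processed signal, and 0.20 at 12 h with the smaller offset, with which the call at 1 h was lost (-0.42, adjusted p = 0.161). The call at 12 h was also lost without quantile normalization between arrays (-0.31, adjusted p = 0.0574) and with the authors' values (-0.29, adjusted p = 0.296). The difference of Ccl9 at 1 h was lost with the processed signal (1.01, adjusted p = 0.101), with which Ccl22 passed (1.57, adjusted p = 0.00164). That of Ccl6 at 12 h was lost with the processed signal (-0.34, adjusted p = 0.483) and without quantile normalization between arrays (-0.18, adjusted p = 0.0751). The difference of Ccl4 at 12 h was lost without replicate 1 of EPM DMSO 12 h (0.33), of EPM Kdo2 12 h (0.44) or of BMDM DMSO 12 h (0.42), without replicate 2 of EPM Kdo2 12 h (0.42) or of BMDM Kdo2 12 h (0.29), and with the authors' values (0.33, adjusted p = 0.0942). That of Ccl22 was lost without replicate 2 of BMDM Kdo2 12 h (0.25). That of Ccl2 at 1 h, 0.70 ± 0.23 and not past the threshold (adjusted p = 0.0675), passed without replicate 1 of BMDM Kdo2 1 h (0.89), without replicate 2 of EPM Kdo2 1 h (0.91), with the replicate block (adjusted p = 0.00179), with quantile normalization over channels (adjusted p = 0.0281) and without it between arrays (adjusted p = 0.0442).

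**Figure D3:**
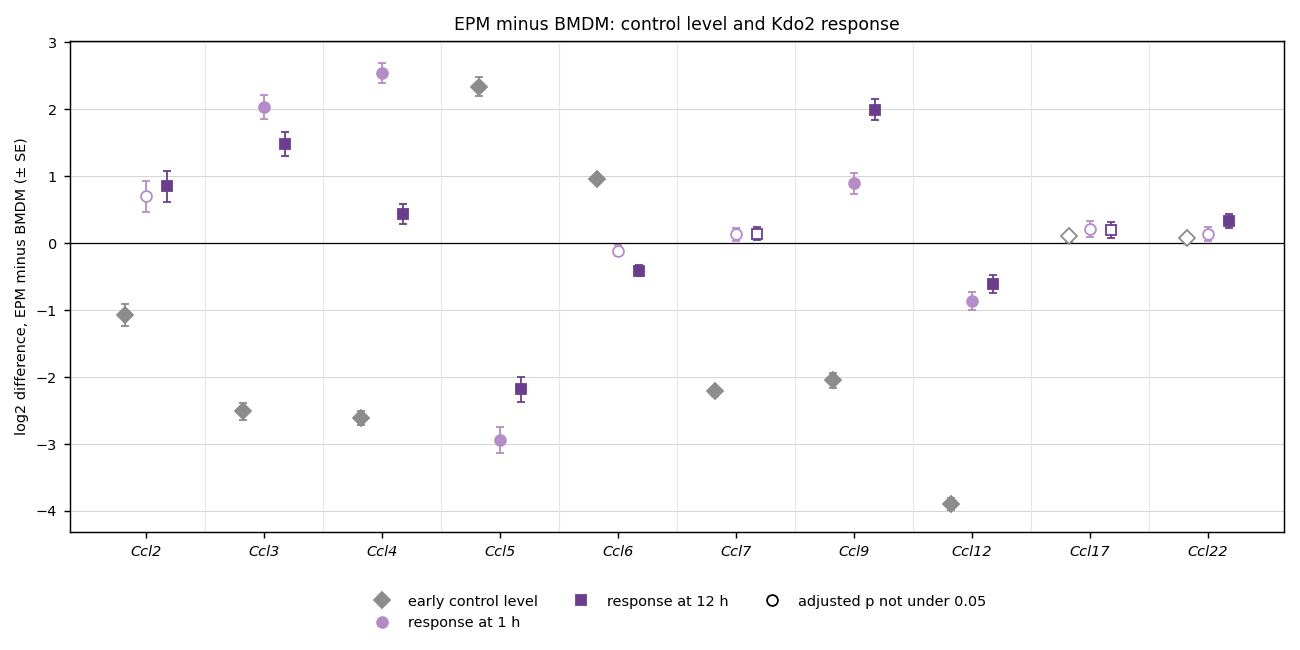
Log2 difference, EPM minus BMDM (vertical axis, ± SE), of the early control level (diamonds) and of the response to Kdo2 at 1 h (circles) and 12 h (squares) for each CC chemokine (horizontal axis), open where the adjusted p was not under 0.05. Ccl3 and Ccl4 have control differences of -2.51 and -2.61 with response differences above 0, and Ccl5 has a control difference of 2.34 with response differences of -2.94 and -2.18.

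In B cells, Ccl2, Ccl6, Ccl7, Ccl12 and Ccl22 were not well above background in any of the 8 channels, while Ccl3, Ccl4 and Ccl5 were well above it in all. Against untreated EPM, untreated B cells were lower in 7 members and higher in Ccl4, while 38.5% of all genes were higher and 38.6% lower. Ccl2 was at least 205.1-fold lower, Ccl6 at least 645.2-fold, Ccl7 at least 23.3-fold and Ccl12 at least 1.39-fold. Ccl9 was 32.5-fold lower, Ccl5 9.08-fold and Ccl3 1.76-fold. Ccl4 read 11.55 and 11.64 in untreated B cells and 11.07 and 11.19 in untreated EPM, 1.38-fold higher in B cells (0.47 ± 0.11, adjusted p = 0.000651). It did not pass without quantile normalization between arrays (0.19, adjusted p = 0.12), and was -0.39 on array means, where the 12 h controls take part. Ccl6 was at 13.57 or above in all macrophage channels. Of the 10 macrophage markers, 5 stayed near background in every B cell array. Others did not, with mean levels of 7.44 to 10.88 for Emr1 and 8.13 to 8.82 for Lyzs. The part of macrophages in the B cell levels of Ccl3 and Ccl4 was not tested.

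With the labels as deposited, 1 h of Kdo2 changed 1 of 10 members in B cells, while 2.72% of all genes rose and 2.45% fell. Ccl9 read 7.39 and 7.50 in untreated B cells and 6.10 and 6.23 with Kdo2 at 1 h, at least 2.42-fold lower (-1.28 ± 0.11, adjusted p = 5.77e-07). It read 6.21 and 6.15 with DMSO and 6.16 and 6.14 with Kdo2 at 12 h, so that the untreated array stood apart from the other B cell arrays, vehicle included. The summed macrophage markers were alike in these 2 arrays (10.34 and 10.36). Ccl3, Ccl4 and Ccl5 read alike in both: Ccl3 at 9.501 and 9.47 in untreated and 9.74 and 9.60 in Kdo2, Ccl4 at 11.55 and 11.64 against 11.64 and 11.70, and Ccl5 at 8.68 and 8.92 against 8.68 and 9.13.

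After 12 h as labelled, 2 of 10 members were higher with Kdo2, while 2.81% of all genes rose and 2.48% fell. Ccl3 read 8.79 and 8.59 in DMSO and 9.62 and 9.82 in Kdo2, 2.04-fold higher (1.03 ± 0.13, adjusted p = 2.1e-05). Ccl5 read 7.57 and 7.42 in DMSO and 8.76 and 9.03 in Kdo2, 2.64-fold higher (1.40 ± 0.14, adjusted p = 1.08e-06). Ccl4 read 10.35 and 10.37 in DMSO and 10.34 and 10.71 in Kdo2 (0.16 ± 0.11, adjusted p = 0.519). The array labelled DMSO 12 h was thus the lowest of the 4 B cell arrays for Ccl3 and Ccl5. Its summed macrophage markers were the highest of the 4 (11.60, against 11.39 in Kdo2 12 h). Of them, Emr1 read 10.88 against 7.52 in untreated B cells, Lyzs 8.82 against 8.31 and Marco 7.60 against 7.42. Csf1r read 6.27 against 6.45 and Cd68 7.39 against 7.82, and the other 5 were not well above background. The summed T cell markers were 12.37 to 12.73 in B cells, with 6 to 7 of 10 well above background, and their part in the Ccl5 level was not tested.

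With the labels of Kdo2 1 h and DMSO 12 h exchanged, 4 members passed at 1 h, all lower: Ccl3 at -0.79, Ccl4 at -1.23, Ccl5 at -1.30 and Ccl9 at -1.26 (SE 0.11 to 0.14). At 12 h 1 passed, Ccl4 at -1.15, and Ccl3 (0.05, adjusted p = 0.765) and Ccl5 (-0.01, adjusted p = 0.961) did not. With the exchange, 8216 genes passed at 1 h and 8526 at 12 h, against 897 and 918 with the labels as deposited. Of all genes, 22.4% were lower at 1 h and 24.4% at 12 h with the exchange. On array means limma called no member in B cells at either time, 0 also at an unadjusted p under 0.05, and 14 (0.0807%) and 1 (0.00576%) of all genes passed. The exchange sets the array labelled DMSO 12 h against untreated cells, and Kdo2 12 h against the array labelled Kdo2 1 h. As deposited, Emr1 read 7.52 in untreated B cells, 7.44 in Kdo2 1 h, 10.88 in DMSO 12 h and 10.61 in Kdo2 12 h. Ccr7 read 14.44, 14.48, 13.48 and 13.52 in the same order. Which labelling is right was not tested further, and the direction of the B cell changes of Ccl3, Ccl4 and Ccl5 depends on it. The difference between the B cell and macrophage responses was not tested.

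**Figure D4:**
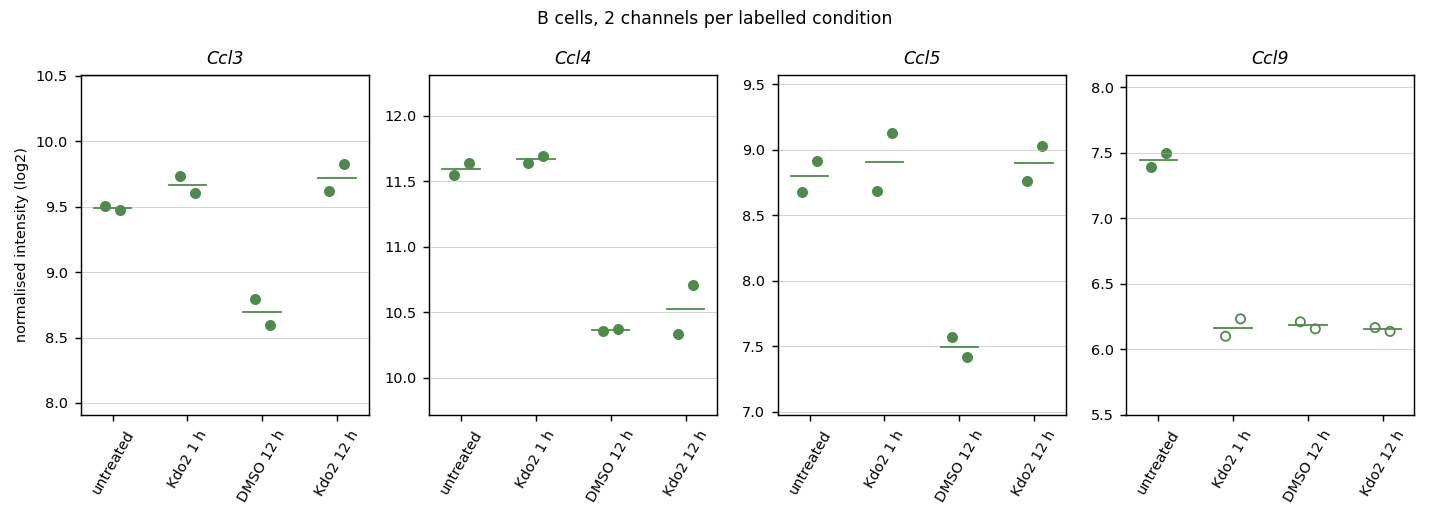
Normalised intensity (log2, vertical axis, the same span in each panel) of Ccl3, Ccl4, Ccl5 and Ccl9 in the 4 B cell arrays by labelled condition (horizontal axis), with 1 point per channel and a bar at the mean, open where the probe was not well above background in both channels. Ccl3 and Ccl5 are lowest in the array labelled DMSO 12 h (8.79 and 8.59, 7.57 and 7.42), and Ccl9 is above background in untreated cells at 7.39 and 7.50.

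Of the other CC ligands on the array, 7 of 10 were tested. In EPM 1 rose and 3 fell at 1 h and 3 rose and 2 fell at 12 h, and in BMDM 1 rose at 1 h and 2 rose and 1 fell at 12 h. Among them Ccl8, which encodes MCP-2, passed with at least a doubling of its level at 12 h, by 2.18 in EPM (mean level 8.67 in DMSO and 10.85 in Kdo2) and by 2.50 in BMDM (10.06 and 12.56). At 1 h its change was -0.20 in EPM and 0.07 in BMDM. In B cells limma called 0 of the 7 at either time, against 1 at 1 h and 0 at 12 h at an unadjusted p under 0.05, and with the 2 labels exchanged 2 were higher at each time. Over all genes with the exchange, 8216 of 17344 passed at 1 h, 3883 of them lower, and 8526 of 17347 at 12 h, 4229 of them lower.

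Of the CC chemokine receptors, 13 of 15 were tested, and 5 or 6 rose and 1 to 3 fell in each macrophage comparison. Ccrl2, an atypical receptor that binds chemerin and does not signal like the others, rose in all 4, by 3.38 and 3.34 in EPM at 1 h and 12 h and by 4.63 and 4.49 in BMDM. Ccr7, the receptor that guides dendritic cells and T cells to lymph nodes, rose in EPM at 12 h by 2.03, from a mean level of 6.77 to 8.80. In B cells limma called 0 of 13 receptors at 1 h, against 2 at an unadjusted p under 0.05, and 2 at 12 h. With the labels exchanged 2 were higher and 4 lower at 1 h, and 3 higher and 2 lower at 12 h. Of the 8 genes of the TLR4 receptor and its adaptors, 3 rose and 1 fell at 1 h in each macrophage, and 5 rose and 2 fell in EPM and 6 rose and 1 fell in BMDM at 12 h. In B cells 1 of the 8 was higher at 1 h and 2 at 12 h with the labels as deposited, against 2 higher and 3 lower at 1 h and 3 higher and 3 lower at 12 h with the exchange. The receptor and TLR4 counts with the exchange stand beside 8216 of 17344 genes that passed over all at 1 h and 8526 of 17347 at 12 h.

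The genes whose mean levels over the 12 conditions were most like those of a member differed between members. For Ccl2 they were Rab20, AI607873 and Itga5 (Pearson r of 0.996, 0.994 and 0.993), for Ccl7 Ifih1, Ube2f and Adora2b (0.992, 0.992 and 0.988), and for Ccl12 Fabp2, Rapgef2 and Pfpl (0.994, 0.977 and 0.974). For Ccl3 they were Irg1, Zc3h12c and Ccl4 (0.978, 0.974 and 0.965), for Ccl4 Zc3h12c, Tnf and Ccl3 (0.974, 0.967 and 0.965), and for Ccl5 Oasl1, Slamf7 and Bcl2a1c (0.966, 0.963 and 0.961). For Ccl6 they were Chi3l3, Igf1 and Por (0.999, 0.998 and 0.998) and for Ccl9 Spred1, Lcp2 and Slc16a10 (0.991, 0.990 and 0.989). These are descriptions over 12 condition means that share arrays and cell types, and for Ccl2, Ccl6 and Ccl9 the points fall into 2 clusters, macrophages and B cells, as the plot of levels shows. For Ccl17 and Ccl22, which were near background, the highest were 1600029D21Rik, Il1a and 3010026O09Rik (0.935, 0.935 and 0.934) and Krt23, Thbs4 and D5Ertd135e (0.939, 0.930 and 0.926).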

How the data were processed

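Total RNA of 12 conditions was hybridised to 12 Agilent 2-colour arrays. The deposited files are scanner intensity output of Agilent Feature Extraction 9.5.3.1, 2 per array and identical, and a table by the authors of normalised intensity values for 38516 probes whose normalisation is not given in the sources used here. Samples were grouped from the labels. Background was corrected with normexp (offset 50), followed by loess within arrays, quantile normalisation of average intensities between arrays and extraction of single-channel log2 values. Outlier spots were set missing, which left 134 missing values over 108 genes, spots of a probe were averaged, and the brightest probe of a gene was used. R 4.3.3 with limma 3.58.1 fitted 12 condition means with 12 residual degrees of freedom and Benjamini-Hochberg adjustment over all genes, and was tested on simulated data. Named beside the members are genes of the ligand and receptor lists that passed with a doubling or halving in a macrophage comparison, and the 3 genes most like each member. The members and lists were chosen with earlier results of these data known.

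Probes flagged well above background made up 57.5% to 61.5% per channel in B cells, 60.0% to 65.0% in EPM and 58.2% to 61.2% in BMDM, and no spot was saturated. Replicate numbers follow the dye: Cy5 minus Cy3 correlated positively over genes in each of 66 pairs of arrays (r of 0.267 to 0.627), which makes the channels paired by dye, and the replicate block was fitted as an alternative. Alternatives were other background corrections, normalisations, filters, probe rules, sample sets, array means, exchanged B cell labels and leaving out each replicate. Figures were drawn with matplotlib.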

Additional observations from a re-analysis of the deposited data

Results flagged for a closer look

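The response to Kdo2 differed between EPM and BMDM, by the test of the difference itself, for the following members, given as EPM minus BMDM on the log2 scale. At 1 h the differences were 2.042 for Ccl3, 2.54 for Ccl4, -2.943 for Ccl5, 0.8951 for Ccl9 and -0.8633 for Ccl12. At 12 h they were 0.8524 for Ccl2, 1.479 for Ccl3, 0.4342 for Ccl4, -2.185 for Ccl5, -0.4104 for Ccl6, 1.998 for Ccl9, -0.6053 for Ccl12 and 0.3314 for Ccl22. For Ccl22, 3 of the 4 groups were not well above background. It entered the test through EPM after 12 h of Kdo2 alone, so that its place in this list is no support for the others. The direction for Ccl12 depended on the background correction, with 0.15 at 1 h and 2.24 at 12 h with the processed signal. On array means no member passed at either time, with 0% of all genes called at 1 h and 0.617% at 12 h.

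The response also differed between 12 h and 1 h, given as 12 h minus 1 h. In EPM the differences were 1.05 for Ccl2, -1.353 for Ccl3, -3.167 for Ccl4, 3.226 for Ccl5, -0.4234 for Ccl6, 1.698 for Ccl7, 1.809 for Ccl9 and 3.946 for Ccl12, the last a lower bound. In BMDM they were 0.897 for Ccl2, -0.7899 for Ccl3, -1.062 for Ccl4, 2.468 for Ccl5, 1.688 for Ccl7, 0.7061 for Ccl9 and 3.688 for Ccl12. Groups of 2 channels cannot be tested for outlying samples.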

How the results depend on the processing

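Leaving out any 1 channel moved no count of members called by over 1.5 times. The paired fit with the replicate block lost no call and gained 3 (Ccl17 in BMDM at 1 h and 12 h, adjusted p = 0.015 and 0.0157, and the 1 h response difference of Ccl2, adjusted p = 0.00179). Where only genes detected in all channels were tested, 3 members remained in the test (Ccl3, Ccl4, Ccl5), and the count was 3 in each macrophage and between-cell comparison and 0 in B cells at 1 h. Taking each array's mean as 1 sample gave a count of 3 in EPM and 1 in BMDM at 1 h, and 0 in B cells at 1 h and at 12 h. Between EPM and BMDM controls it was 5, with the early and 12 h controls pooled, so that the times share the same test. The count was 0 for the response difference at 1 h and at 12 h, and 1 in EPM and 0 in BMDM for 12 h against 1 h. This fit has 3 residual degrees of freedom. With the authors' values, which held 9 of the 10 members and not Ccl2, the count was 5 for the response difference at 12 h, and 4 and 1 in B cells at 1 h and 12 h, which were also the counts with the B cell labels exchanged. With the processed signal it was 2 in B cells at 1 h. For the filter on all channels, the authors' values and the processed signal the share of all genes called was not counted. These counts therefore cannot be set against it.

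Directions changed as follows. For the response difference of Ccl12 the value was 0.20 at 12 h with offset 16, and 0.15 at 1 h and 2.24 at 12 h with the processed signal. In B cells with the authors' values it was -0.75 for Ccl3, -1.14 for Ccl4 and -1.26 for Ccl5 at 1 h and -0.998 for Ccl4 at 12 h, and with the labels exchanged -0.79, -1.23, -1.30 and -1.15, and -0.0103 for Ccl5 at 12 h. With array means it was 0.052 for Ccl6 in EPM at 1 h and -0.39 for Ccl4 in B cells against EPM. The cause was not tested, save that the authors' table holds the exchanged B cell columns. Dim probes (Ccl12 in EPM, Ccl17, Ccl22) limit the size of a change, and 2 channels on 1 array per condition limit all tests.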
